A study of Homo sapiens with 6 samples.

Results

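The 10 genes described here make, reduce, oxidize or conjugate androgens, and were followed in 22Rv1 cells with less ZMYND11, a reader of modified histone H3. They were taken by symbol for these roles, and are 10 of the 35322 gene symbols counted. UGT2B11, UGT2B15, UGT2B17 and UGT2B28 encode glucuronosyltransferases. AKR1C3 encodes a ketosteroid reductase, SRD5A1 and SRD5A3 belong to the 5-alpha reductase family, and HSD17B4, HSD17B6 and HSD17B11 encode 17-beta hydroxysteroid enzymes. All 10 symbols were in the table, and 9 of them, all but UGT2B28, had enough counts to be tested.

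Testosterone can be made from weaker adrenal steroids by ketosteroid reduction and is turned into dihydrotestosterone, the more potent androgen, by 5-alpha reduction. Oxidizing enzymes move steroids between active and inactive forms, and UGT2B enzymes attach glucuronic acid to androgens and their metabolites so that they can be excreted. In the prostate these steps are known to set how much active androgen the cells are exposed to, and androgens are known to hold down the transcription of UGT2B15 and UGT2B17.

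22Rv1 is an established human prostate carcinoma line. Each of 3 groups had 2 libraries, namely control cells, whose genotype the labels give as WT, and the knockdowns ZM11-kd1 and ZM11-kd2, in which ZMYND11 was reduced. The study describes the sequenced cells as stably carrying shRNAs, against ZMYND11 or as control. The WT label of the control cells does not say whether they carried a control shRNA. Which shRNA was used in each knockdown is not stated. In the study's methods, cells infected with shRNA vectors were selected with puromycin and kept in it at a lower dose. It is not stated whether the libraries of a group came from separate cultures, so p-values measure the spread between these libraries, which may be technical.

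The libraries held 26844128 to 38193748 counts, at which 3 counts equal 0.0840 to 0.101 CPM (counts scaled to library size with TMM normalization). ZMYND11 had 4283 and 4179 counts in control cells, 941 and 773 in ZM11-kd1, and 770 and 779 in ZM11-kd2, so every knockdown library lay below both controls. All 8 luminal prostate carcinoma markers had at least 10 counts in every library, whereas immune markers together reached at most 1.22 CPM and endothelial markers at most 0.196 CPM. The 4 stromal markers summed to 32.2 to 34.6 CPM in control cells, 86.4 to 86.9 in ZM11-kd1 and up to 44.5 in ZM11-kd2. Most of this sum was COL1A1, with means of 23.9, 74.5 and 31.2 CPM in control, ZM11-kd1 and ZM11-kd2, and COL1A2 rose in both knockdowns from fewer counts. LUM rose in ZM11-kd2 (log2 fold change 0.68) and DCN fell there, from 2.06 to 0.543 CPM, and neither passed the test in ZM11-kd1. The 4 hepatocyte markers, listed because the liver is a main site of UGT2B expression, summed to 327 to 334 CPM in control cells, 174 to 186 in ZM11-kd1 and 117 to 128 in ZM11-kd2, with APOA1 near 0. The lower sum was that of ALB, with means of 327.1, 160.8 and 111.7 CPM, while TTR (2.70, 15.7 and 9.46 CPM) and CYP2E1 (0.617, 3.10 and 1.36 CPM) rose in both knockdowns. The part of either list in the results was not tested. In bulk RNA, fewer cells that express a gene and less of its RNA per cell cannot be told apart.

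All but 3 members (UGT2B17, UGT2B28 and HSD17B6) had a promoter sequence in the RefSeq table of GRCh38.p14, and AKR1C3 had 2. UGT2B15 and its relative UGT2B11 fell together in ZM11-kd1 and differed in ZM11-kd2, so the 250 bases before their starts are shown. These bases lie at chr4:68670653-68670902 for UGT2B15 and chr4:69214749-69214998 for UGT2B11, both on the minus strand. They are written 5′ to 3′, and capitals mark 1 arm of the androgen response element (AGAACA) and a FOXA site (TGTTTAC, found here on the opposite strand), both searched on both strands.
UGT2B15: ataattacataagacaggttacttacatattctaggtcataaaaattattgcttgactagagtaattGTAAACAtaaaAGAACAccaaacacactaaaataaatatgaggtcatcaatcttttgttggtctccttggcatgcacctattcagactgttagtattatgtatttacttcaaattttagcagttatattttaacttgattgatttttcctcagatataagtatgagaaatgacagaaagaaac
UGT2B11: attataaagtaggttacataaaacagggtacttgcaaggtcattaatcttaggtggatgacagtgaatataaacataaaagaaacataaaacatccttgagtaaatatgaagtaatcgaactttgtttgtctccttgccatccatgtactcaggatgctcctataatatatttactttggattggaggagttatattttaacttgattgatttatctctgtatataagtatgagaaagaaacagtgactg

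UGT2B15 was the only one of the 7 members with a promoter that held either motif. Its match to this arm of the androgen response element lay 172 to 167 bases before the start and its FOXA match 183 to 177 bases before it, and the 2 matches did not overlap. By comparison, 12.4% of 35116 human promoters of the same length held the former and 2.98% the latter. Part of the HNF1 site (GTTAAT), held by 6.23% of promoters, was in no member's promoter, and neither were the full inverted repeats of the androgen response element (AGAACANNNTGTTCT) and of HNF1 (GTTAATNATTAAC). The 2 UGT2B promoters were identical at 182 of 260 aligned positions, or 70%. In the stretch around the motifs, capitals now mark the bases that differ between them.
UGT2B15, 191 to 162 bases before the start: GagtAaTtGtaaacataaaagaacaCCaaa
UGT2B11, 190 to 160 bases before the start: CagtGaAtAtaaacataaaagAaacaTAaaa
A match describes letters only and does not show that a factor binds there.

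Compared per length, on the scale of CPM per kb of the canonical transcript, the members spanned 0.0701 to 70.7 in control cells. HSD17B4 was the highest at 70.7 ± 0.0215, followed by HSD17B11 at 46.2 ± 0.444 and AKR1C3 at 44.9 ± 0.749 (SD, n = 2 each). UGT2B15 stood at 19.6 ± 0.454, SRD5A1 at 5.65 ± 0.500, SRD5A3 at 3.67 ± 0.0473 and HSD17B6 at 3.30 ± 0.276 (SD, n = 2 each). UGT2B17, UGT2B11 and UGT2B28 were lowest, at 0.530, 0.309 and 0.0701. The libraries of neighbours in this order did not overlap in control cells, but HSD17B11 and AKR1C3 lay close together, as did SRD5A3 and HSD17B6. The order depends on the length used. The canonical transcripts of HSD17B4, AKR1C3 and HSD17B11 have 2628, 1186 and 1782 bases, and their summed exons 24901, 3911 and 2332.

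On the same scale, per canonical transcript, the order changed in the knockdowns. In ZM11-kd1, AKR1C3 took the top place at 114.7 ± 1.52 CPM per kb, above HSD17B4 at 84.5 ± 0.365 (SD, n = 2 each), and SRD5A1 at 9.27 lay above UGT2B15 at 6.55. In ZM11-kd2, AKR1C3 was at 23.1 ± 0.675 (SD, n = 2), again behind HSD17B4 at 61.2 and HSD17B11 at 39.2. UGT2B17 at 1.01 and HSD17B6 at 0.874 were not separated there, because the HSD17B6 libraries spanned 0.648 to 1.10.

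**Figure D1:**
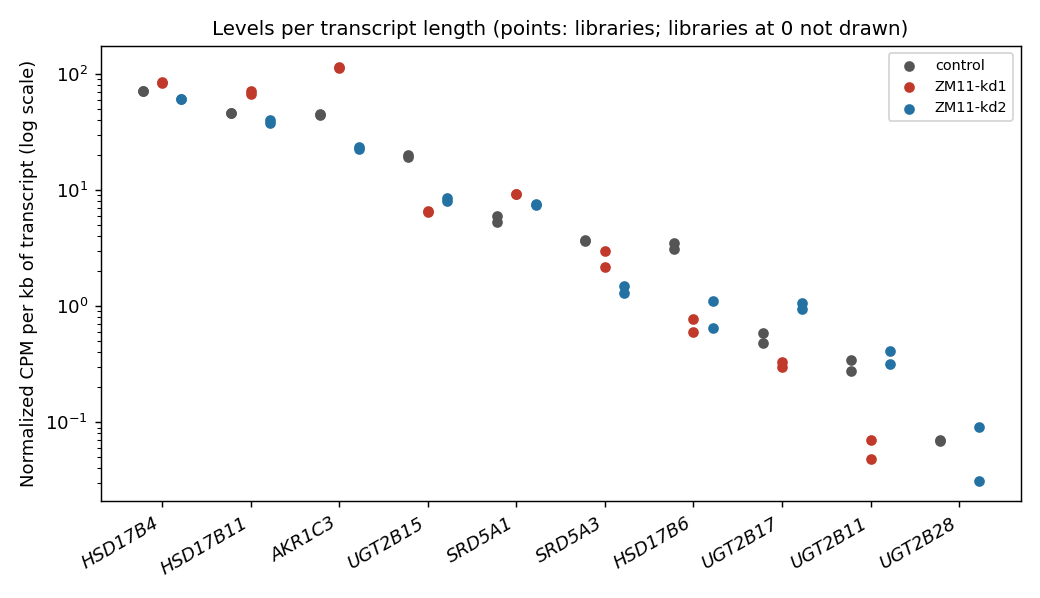
Level of each member in CPM per kb of its canonical transcript (y axis, log scale), for each library of control, ZM11-kd1 and ZM11-kd2 cells, with genes ordered by their control level; libraries at 0 are not drawn. AKR1C3 moves from 44.9 in control cells to 114.7 in ZM11-kd1 and 23.1 in ZM11-kd2, above HSD17B4 and HSD17B11 in ZM11-kd1 and below both in the other groups.

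The question asked of both knockdowns was which of these enzymes changed when ZMYND11 was reduced. In ZM11-kd1, 9 of the 9 tested members passed an adjusted p of 0.05 in edgeR's quasi-likelihood test, 4 higher and 5 lower, in a comparison where 78.0% of all 16510 genes passed. In ZM11-kd2, 8 of 9 passed, 2 higher and 6 lower, against 73.4% of all genes. Over all genes, 38.2% passed as higher and 39.8% as lower in ZM11-kd1, and 36.5% and 36.9% in ZM11-kd2. The libraries of the knockdown and of control did not overlap for 89.7% of all genes in ZM11-kd1 and 86.3% in ZM11-kd2. Passing the test and a lack of overlap were thus the usual outcome for a gene here, and the members are described by direction and size. Their median log2 fold change was -0.51 in ZM11-kd1 and -0.24 in ZM11-kd2, against -0.03 over all genes in both. Their median size of change was 0.74 in ZM11-kd1, below the 0.87 of all genes, and 0.92 in ZM11-kd2, above 0.68. The knockdowns share their control libraries and are therefore not independent of each other.

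UGT2B15, HSD17B6 and SRD5A3 fell in both knockdowns, and SRD5A1 rose in both. AKR1C3, HSD17B4 and HSD17B11 rose in ZM11-kd1 and fell in ZM11-kd2, and UGT2B17 went the other way, but several of these calls, those of HSD17B4, UGT2B17 and, in ZM11-kd1, SRD5A3, depended on the setting, as given with each gene. UGT2B11 fell in ZM11-kd1 and did not pass in ZM11-kd2. Scaling by library totals in place of TMM shifted the median log2 fold change of all genes to -0.38 in ZM11-kd1 and -0.20 in ZM11-kd2, and the share of calls that were higher in ZM11-kd1 from 49.0% to 35.3%, so small changes depend on the scaling.

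**Figure D2:**
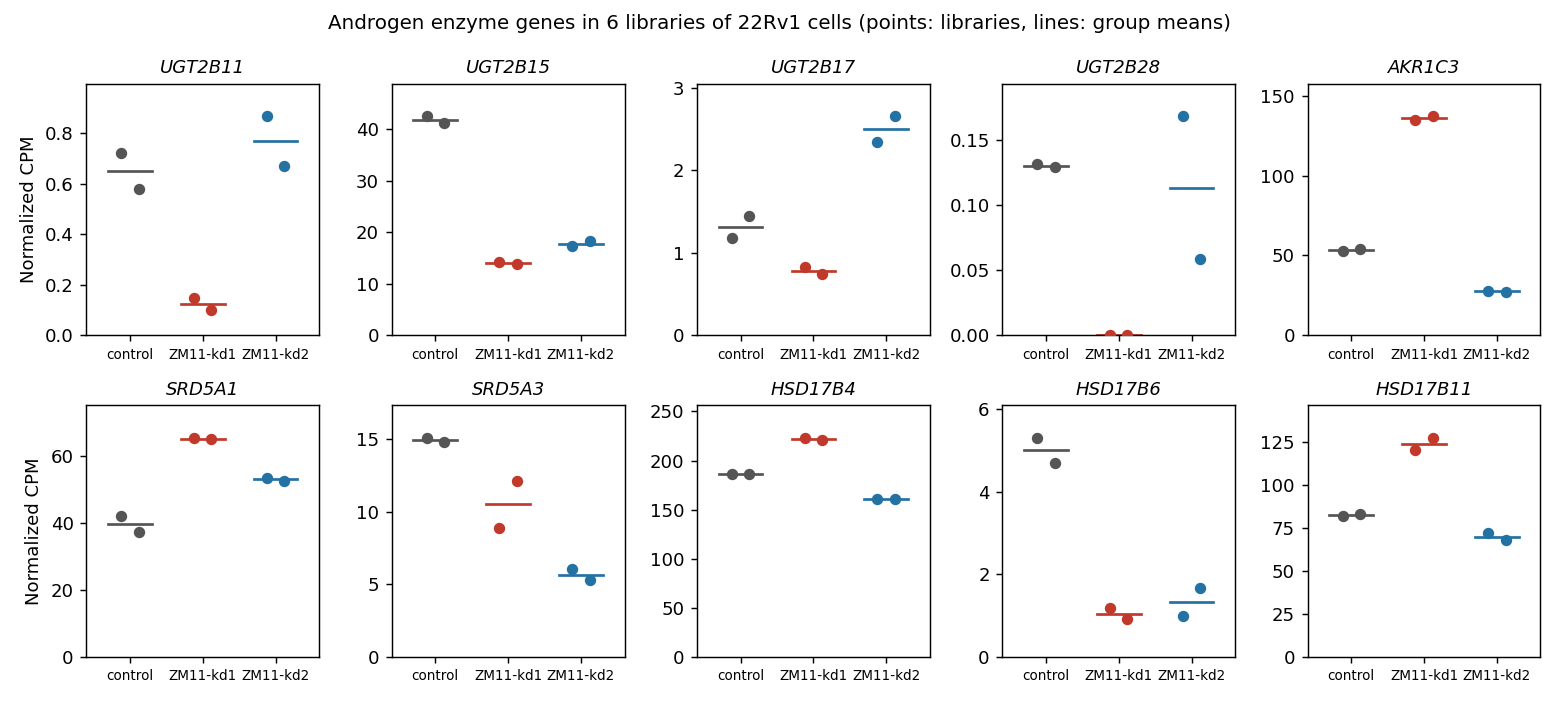
Normalized CPM (y axis, starting at 0, with its own scale in each panel) of the 10 members in each of the 6 libraries; points are libraries and lines are means of 2. UGT2B15, SRD5A3 and HSD17B6 lie below control in both knockdowns, SRD5A1 lies above it, and AKR1C3 goes from 53.3 up to 136.0 and down to 27.4.

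**Figure D3:**
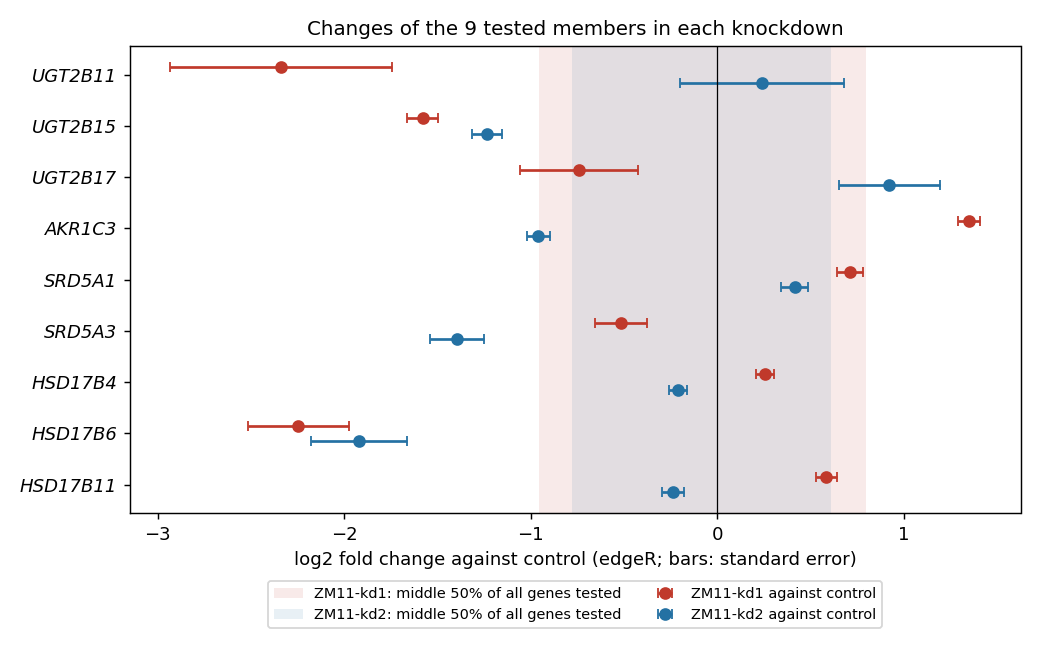
log2 fold change against control (x axis) of the 9 tested members in ZM11-kd1 and ZM11-kd2, with bars for the standard error and shading for the middle 50% of all genes tested. UGT2B15 and HSD17B6 lie left of the shading in both knockdowns, while HSD17B4 and HSD17B11 lie within it in both.

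Among the glucuronidation genes, UGT2B15 fell by more than 2-fold in both knockdowns. It encodes an enzyme that conjugates dihydrotestosterone and androstanediol, and is located on chromosome 4, positions 68646597 to 68670652, minus strand (GRCh38). UGT2B15 had 1292 and 1276 counts in control cells, 482 and 407 in ZM11-kd1, and 619 and 624 in ZM11-kd2. All 4 knockdown libraries were far below both controls, although they were sequenced more deeply. Normalized levels of UGT2B15 were 41.8 ± 0.970, 14.0 ± 0.311 and 17.8 ± 0.630 CPM for control, ZM11-kd1 and ZM11-kd2 (SD, n = 2 each). The log2 fold change was -1.58 in ZM11-kd1 (standard error [SE] 0.08, adjusted p = 2.25e-10, edgeR) and -1.23 in ZM11-kd2 (SE 0.08, adjusted p = 3.89e-09, edgeR), or 2.99-fold and 2.35-fold lower.

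UGT2B17, whose enzyme conjugates testosterone and dihydrotestosterone, is the closest relative of UGT2B15, with 96.5% identity of the coding sequence, and lies beside it from 68537173 to 68576413 on the minus strand. It had 36 and 45 counts in control cells, 28 and 22 in ZM11-kd1, and 84 and 91 in ZM11-kd2. The groups did not overlap, and ZM11-kd2 was the highest. Its log2 fold change was 0.92 in ZM11-kd2 (SE 0.27, adjusted p = 0.00675, edgeR). In ZM11-kd1 it was -0.74 (SE 0.32, adjusted p = 0.0448, edgeR), a call that was lost with a replicate block (adjusted p = 0.0621, edgeR), with only the compared groups in the fit (0.0661, edgeR), with DESeq2's Wald test (0.113), and without any single library, controls included (0.0563 to 0.211, edgeR). Without control replicate 1 the value in ZM11-kd2 was 0.79 (adjusted p = 0.0662, edgeR).

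The relation of UGT2B15 to UGT2B17 changed with these moves. Of the counts of the 4 UGT2B members, UGT2B15 held 95.4% and 95% in control cells, 93.6% and 94.2% in ZM11-kd1, and 83.6% and 84.3% in ZM11-kd2. The share of UGT2B17 was 2.66% and 3.35% in control cells, 5.44% and 5.09% in ZM11-kd1, and 11.4% and 12.3% in ZM11-kd2. These are shares of counts and not of molecules, but the gene lengths are the same in every library. The paralogs can share reads, since 94 of the 1985 stretches of 150 bases in the UGT2B15 transcript, or 4.74%, occur unchanged in UGT2B17. How reads with several matches were counted is not given in the sources used here. With both genes summed, the log2 fold change was -1.55 in ZM11-kd1 and -1.09 in ZM11-kd2, which mostly follows UGT2B15.

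UGT2B11, whose enzyme is better known for fatty acid metabolites than for androgens, was low throughout. UGT2B11 is located on chromosome 4, positions 69199951 to 69214748, minus strand. It had 22 and 18 counts in control cells, 5 and 3 in ZM11-kd1, and 31 and 23 in ZM11-kd2. ZM11-kd1 lay below all other libraries, and ZM11-kd2 overlapped control. The log2 fold change was -2.34 in ZM11-kd1 (SE 0.59, adjusted p = 0.00238, edgeR). In ZM11-kd2 it was 0.24 (SE 0.44, adjusted p = 0.633, edgeR), with a 95% interval from -0.70 to 1.19 that covers a fall as well as a rise. UGT2B11 shares 435 exonic bases with ENSG00000250696 on the opposite strand, which has no row in the table.

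UGT2B28 encodes a further steroid-conjugating enzyme, and is located on chromosome 4, positions 69280475 to 69295050, plus strand. It had 4 and 4 counts in control cells, none in ZM11-kd1, and 6 and 2 in ZM11-kd2. A count of 0 allows up to 0.0883 and 0.101 CPM in the ZM11-kd1 libraries. The 0.13 CPM of control cells rests on 4 counts per library and has a counting error of its own. UGT2B28 did not pass the filter on low counts, so no difference was tested. Its coding sequence is 97.0% identical to that of UGT2B11.

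AKR1C3 moved strongly and in opposite directions. Its enzyme, also known as 17-beta hydroxysteroid dehydrogenase type 5, reduces androstenedione to testosterone, and the gene is located on chromosome 10, positions 5035354 to 5107686, plus strand. AKR1C3 had 1602 and 1674 counts in control cells, 4577 and 4064 in ZM11-kd1, and 1000 and 920 in ZM11-kd2. The 3 groups stood well apart, with ZM11-kd1 highest and ZM11-kd2 lowest. It rose from a control level of 53.3 ± 0.888 CPM to 136.0 ± 1.80 in ZM11-kd1 (SD, n = 2 each), a log2 fold change of 1.35 (SE 0.06, adjusted p = 2.95e-11, edgeR). In ZM11-kd2 it fell to 27.4 ± 0.801 (SD, n = 2), with a log2 fold change of -0.96 (SE 0.06, adjusted p = 3.98e-09, edgeR). Its neighbours AKR1C1 and AKR1C2, which inactivate dihydrotestosterone and other steroids by reduction, moved the same way. AKR1C1 had log2 fold changes of 2.14 and -0.87, and AKR1C2 of 1.65 and -0.35, in ZM11-kd1 and ZM11-kd2. The coding sequences of AKR1C1 and AKR1C2 are 91.4% and 91.0% identical to that of AKR1C3. Of the 1037 stretches of 150 bases in the AKR1C3 transcript, 22 (2.12%) occur unchanged in AKR1C2 and none in AKR1C1. AKR1C1 and AKR1C2 can share more reads with each other. Their coding sequences are 98% identical, and 506 of the 6394 stretches in AKR1C1 (7.91%) occur unchanged in AKR1C2. The 3 genes summed gave 1.54 and -0.79.

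Of the 5-alpha reductases, SRD5A1 rose and SRD5A3 fell. SRD5A1 encodes the isozyme that reduces androstenedione and testosterone, and is located on chromosome 5, positions 6633427 to 6674386, plus strand. SRD5A1 had 1285 and 1157 counts in control cells, 2220 and 1925 in ZM11-kd1, and 1906 and 1804 in ZM11-kd2. All knockdown libraries were higher than both controls, also after scaling to 39.7 ± 3.52, 65.2 ± 0.229 and 53.0 ± 0.484 CPM for control, ZM11-kd1 and ZM11-kd2 (SD, n = 2 each). The log2 fold change was 0.71 in ZM11-kd1 (SE 0.07, adjusted p = 2.68e-07, edgeR) and 0.42 in ZM11-kd2 (SE 0.07, adjusted p = 9.35e-05, edgeR). SRD5A2, the other androgen-reducing isozyme, had too few counts to be tested.

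SRD5A3 belongs to the same family but is best known for making dolichol, the lipid carrier of protein glycosylation. It is located on chromosome 4, positions 55346213 to 55373100, plus strand. SRD5A3 had 458 and 459 counts in control cells, 302 and 358 in ZM11-kd1, and 215 and 182 in ZM11-kd2. Both knockdowns lay below control, with ZM11-kd2 lower than ZM11-kd1. The log2 fold change was -1.39 in ZM11-kd2 (SE 0.15, adjusted p = 7.8e-07, edgeR) and -0.51 in ZM11-kd1 (SE 0.14, adjusted p = 0.00381, edgeR). The ZM11-kd1 libraries stood at 8.89 and 12.1 CPM, and without ZM11-kd1 replicate 1 the value was -0.30 (adjusted p = 0.0785, edgeR), while a correction for GC content and length gave -0.21 (adjusted p = 0.178, edgeR). SRD5A3 shares 1787 exonic bases with ENSG00000288695 on the same strand, a gene with no row in the table, and 1346 of the 3912 stretches of 150 bases in the SRD5A3 transcript, or 34.4%, occur unchanged in it. It also overlaps the antisense gene SRD5A3-AS1 over 1082 exonic bases, and whether strand was used in counting is not given in the sources used here. SRD5A3-AS1 had log2 fold changes of -1.55 and -2.47 in ZM11-kd1 and ZM11-kd2. The part of both genes in the counts of SRD5A3 was not tested, and its values are uncertain to that extent.

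The 17-beta hydroxysteroid genes moved in different ways. HSD17B6 encodes an enzyme that can oxidize androstanediol back to dihydrotestosterone, and had the largest mean change of any member. HSD17B6 is located on chromosome 12, positions 56752161 to 56787790, plus strand. It had 161 and 146 counts in control cells, 40 and 27 in ZM11-kd1, and 35 and 57 in ZM11-kd2. Every knockdown library was far below control, and the knockdowns overlapped each other. It fell from 5.00 ± 0.417 CPM to 1.04 ± 0.188 in ZM11-kd1 and 1.32 ± 0.484 in ZM11-kd2 (SD, n = 2 each), with log2 fold changes of -2.24 (SE 0.27, adjusted p = 2.65e-06, edgeR) and -1.92 (SE 0.26, adjusted p = 1.01e-05, edgeR). HSD17B6 shares 132 exonic bases with PRIM1, a DNA primase subunit gene on the opposite strand, which went from 24 CPM to 4.22 and 3.93. The part of PRIM1 reads in the counts of HSD17B6 was not tested.

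HSD17B4 encodes a peroxisomal enzyme that oxidizes estradiol and acts in fatty acid breakdown, and is located on chromosome 5, positions 119452465 to 119637199, plus strand. HSD17B4 had 5658 and 5772 counts in control cells, 7567 and 6554 in ZM11-kd1, and 5741 and 5506 in ZM11-kd2. In CPM the groups did not overlap, at 185.9 ± 0.0566, 222.1 ± 0.958 and 160.7 ± 0.0339 (SD, n = 2 each). The changes were small, with log2 fold changes of 0.26 in ZM11-kd1 (SE 0.05, adjusted p = 0.000255, edgeR) and -0.21 in ZM11-kd2 (SE 0.05, adjusted p = 0.00152, edgeR). Neither direction held under every scaling. Library totals gave -0.098 in ZM11-kd1, which is above the -0.38 of the median gene, and a correction for GC content and summed exon length gave 0.17 in ZM11-kd2.

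HSD17B11 encodes a lipid droplet enzyme that oxidizes androstanediol to androsterone, and is located on chromosome 4, positions 87336515 to 87391188, minus strand. HSD17B11 had 2489 and 2575 counts in control cells, 4083 and 3763 in ZM11-kd1, and 2565 and 2322 in ZM11-kd2. ZM11-kd1 was higher than control also in CPM, at 123.6 ± 4.90 against 82.4 ± 0.791 (SD, n = 2 each), and ZM11-kd2 was lower, at 69.8 ± 2.83 (SD, n = 2). The log2 fold change was 0.59 in ZM11-kd1 (SE 0.06, adjusted p = 2.84e-07, edgeR) and -0.24 in ZM11-kd2 (SE 0.06, adjusted p = 0.00209, edgeR). With library totals the values were 0.23 and -0.41, and with the correction for GC content and length 0.29 and -0.52, all with an adjusted p under the threshold. HSD17B11 shares 117 exonic bases with ENSG00000255723 on the same strand, a gene with no row in the table.

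**Figure D4:**
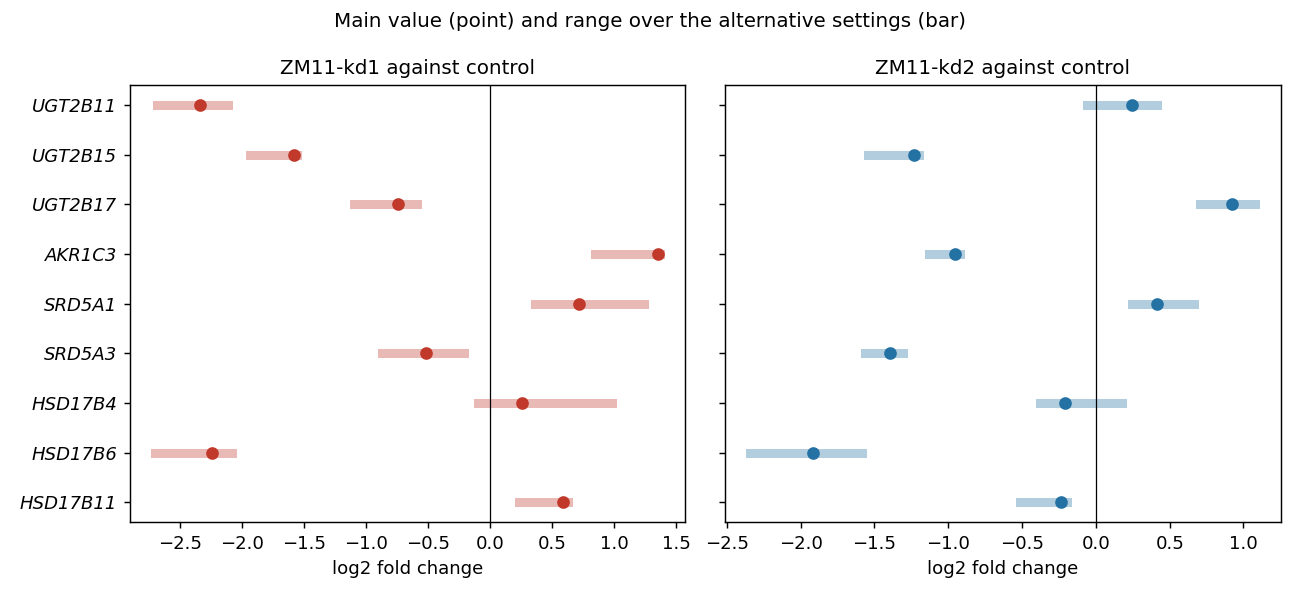
log2 fold change of each tested member against control (x axis) in ZM11-kd1 (left) and ZM11-kd2 (right), with the reported value as a point and the range over the alternative settings, sums of paralogs left out, as a bar. The bars of HSD17B4 cross 0 in both knockdowns, from -0.098 to 0.99 and from -0.38 to 0.17, and so does that of UGT2B11 in ZM11-kd2, whereas those of UGT2B15, AKR1C3, SRD5A1, SRD5A3, HSD17B6, HSD17B11 and UGT2B17 do not.

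A direct comparison asked whether the knockdowns differed from each other. Between ZM11-kd2 and ZM11-kd1, 8 of 9 tested members passed, 3 higher and 5 lower in ZM11-kd2, where 68.8% of all genes passed. Over all genes, 34.9% passed as higher and 33.8% as lower, and the libraries of the knockdowns did not overlap for 83.1%. Their median log2 fold change was -0.30, against 0.02 over all genes. With library totals the median of all genes was 0.21, and the share of calls that were higher went from 50.8% to 61.1%.

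AKR1C3 was 4.96-fold lower in ZM11-kd2 than in ZM11-kd1, a log2 difference of -2.31 (SE 0.06, adjusted p = 2.23e-12, edgeR). UGT2B11 was higher in ZM11-kd2 by 2.58 (SE 0.57, adjusted p = 0.00107, edgeR) and UGT2B17 by 1.67 (SE 0.29, adjusted p = 0.000138, edgeR). Of the members that fell in both, SRD5A3 was lower in ZM11-kd2, and UGT2B15 was slightly higher there. The UGT2B15 difference did not pass with the correction for GC content and length of 1 transcript (0.20, adjusted p = 0.0557, edgeR). HSD17B11 and HSD17B4 were lower in ZM11-kd2 by log2 differences of -0.82 and -0.47 (adjusted p = 1.29e-08 and 9.75e-07, edgeR). For SRD5A1 the difference of -0.30 (adjusted p = 0.00136, edgeR) did not pass with library totals (-0.11, adjusted p = 0.171, edgeR). HSD17B6 did not pass, at 0.32 (SE 0.31, adjusted p = 0.37, edgeR), with a 95% interval from -0.35 to 1.00, and without ZM11-kd2 replicate 2 the value was -0.097.

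The other enzymes of the pathway were taken from lists by role. Of 48 genes, 32 were tested. In ZM11-kd1, 27 passed, 14 higher and 13 lower, or 84.4% beside 78.0% of all genes. In ZM11-kd2, 26 passed, 11 higher and 15 lower, or 81.2% beside 73.4%. The shares of all genes were 38.2% higher and 39.8% lower in ZM11-kd1, and 36.5% and 36.9% in ZM11-kd2. No list is called particular from these counts, and the genes named are those with the largest mean change of both knockdowns in each list.

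Of 7 tested genes of upstream synthesis, which bring in cholesterol and start the pathway, 4 rose and 2 fell in ZM11-kd1, and 2 rose and 3 fell in ZM11-kd2. STARD3, a cholesterol transporter, rose by 1.25 and 1.14 on the log2 scale, while CYB5A, a cofactor of androgen synthesis, had log2 fold changes of -1.31 and -0.85. TSPO, a mitochondrial outer membrane protein, had 1.77 in ZM11-kd1 and -0.32 in ZM11-kd2. POR, the electron donor of microsomal P450 enzymes, had -0.62 and -0.52. CYP17A1, CYP11A1, HSD3B1 and HSD3B2, which carry out the steps from cholesterol to androgens, had too few counts to be tested.

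Of 7 other 17-beta enzymes tested, 5 rose and 1 fell in ZM11-kd1, and 5 rose and 2 fell in ZM11-kd2. HSD17B10, a mitochondrial enzyme, had log2 fold changes of 2.19 and 1.71, and HSD17B14 of 2.62 and 1.16. HSD17B1, which makes estradiol, was low, with 0.588 CPM in control cells, and had 1.17 and 1.45. HSD17B8, a mitochondrial enzyme of fatty acid synthesis, had 2.03 in ZM11-kd1 and -0.21 in ZM11-kd2 (adjusted p = 0.0497, edgeR). Of 5 other genes of 5-alpha and 3-alpha metabolism, 3 rose and 1 fell in ZM11-kd1, and none rose and 3 fell in ZM11-kd2. RDH5, a retinol dehydrogenase that also oxidizes 3-alpha steroids, fell from 9.06 CPM in control cells to 1.04 and 0.332. AKR1C4, a liver enzyme of steroid reduction, had a log2 fold change of 1.81 in ZM11-kd1 and 0.23 in ZM11-kd2 (adjusted p = 0.00367 and 0.723, edgeR).

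Of 7 other glucuronidation genes, 6 fell and none rose in ZM11-kd1, and 4 fell and 2 rose in ZM11-kd2. The 4 named are transferases. UGT2B10 went from 5.32 ± 0.514 CPM in control cells to 0.459 ± 0.0669 in ZM11-kd1 and 0.212 ± 0.176 in ZM11-kd2 (SD, n = 2 each), the last from 12 and 3 counts. UGT2B7 went from 3.04 ± 0.347 to 0.853 ± 0.0829 and 0.387 ± 0.113 (SD, n = 2 each). UGT2B4 went from 4.47 ± 0.0875 to 0.589 ± 0.499 and 2.37 ± 0.132 (SD, n = 2 each), with 32 and 7 counts in ZM11-kd1. UGT1A1, the bilirubin-conjugating enzyme, had 30 and 37 counts in control cells, 0 and 1 in ZM11-kd1, and 7 and 11 in ZM11-kd2. The 3 other tested genes of the list act in making or carrying the glucuronic acid donor. UGDH had log2 fold changes of 0.07 and -0.12 and did not pass in either, whereas UGP2 (-0.68 and 0.66) and SLC35D1 (-1.003 and 0.96) fell in ZM11-kd1 and rose in ZM11-kd2. All 7 UGT2B genes summed gave -1.76 and -1.23.

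Of 4 genes of sulfation, 2 rose and 2 fell in ZM11-kd1, and 1 rose and 2 fell in ZM11-kd2. STS, which frees steroids from their sulfates, had log2 fold changes of 0.85 and 1.59. PAPSS1 and PAPSS2, which make the sulfate donor, fell in both, with -0.79 and -0.41 for PAPSS1 and -1.11 and -0.98 for PAPSS2. SULT2B1, a steroid sulfotransferase, had 2.43 in ZM11-kd1 and 0.06 in ZM11-kd2 (adjusted p = 6.09e-05 and 0.914, edgeR). Of the 2 tested genes of aromatization and oxidation, CYP1B1, which hydroxylates estrogens, had -2.65 and -2.32. CYP3A5, which hydroxylates testosterone, had 0.31 and 0.59 (adjusted p = 0.112 and 0.00591, edgeR).

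**Figure D5:**
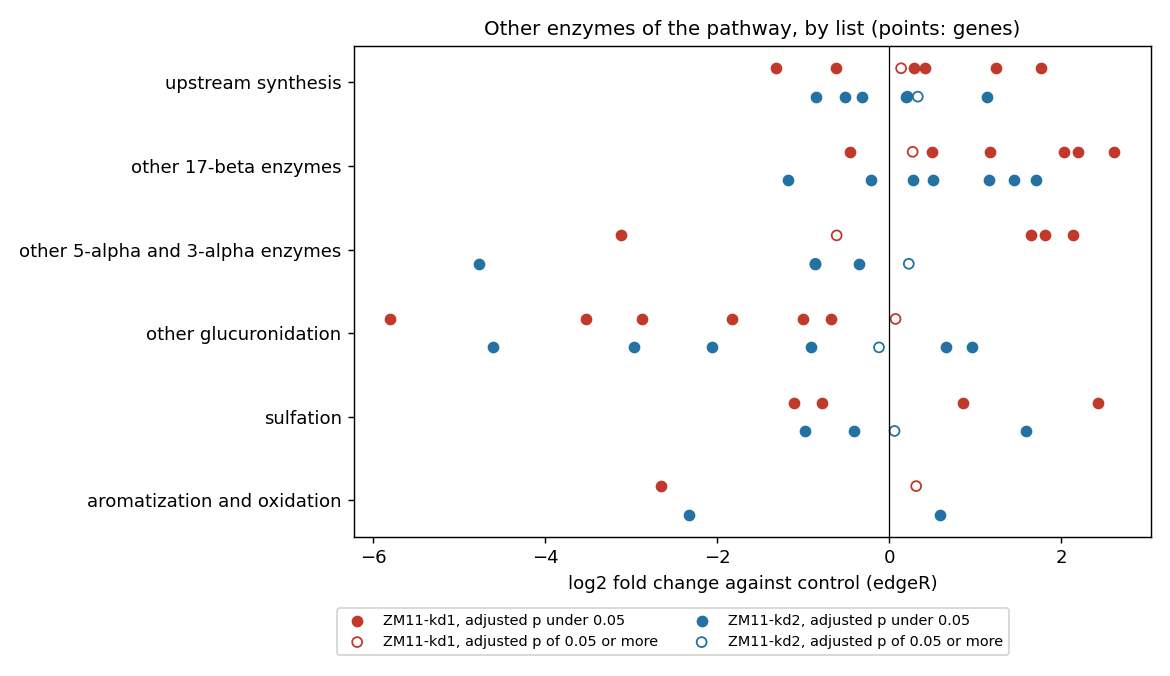
Fitted log2 fold change against control (x axis) of the other tested enzymes of the pathway, grouped by role (y axis), with 1 point per gene and knockdown, filled where the adjusted p was under 0.05. In the glucuronidation list 6 of 7 genes fell in ZM11-kd1 and 4 of 7 in ZM11-kd2, and the leftmost point, UGT1A1 in ZM11-kd1, rests on 0 and 1 counts.

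Among 16501 other tested genes, the patterns most like that of HSD17B6, by the Euclidean distance between log2 CPM profiles over the 6 libraries after subtracting the control mean, were those of NEK8 (distance 0.376), COLQ (0.378), CEP135 (0.399), EMP1 (0.428) and LRRIQ3 (0.443). NEK8 had log2 fold changes of -2.16 and -1.91, beside the -2.24 and -1.92 of HSD17B6.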

How the data were processed

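The 6 RNA libraries of 22Rv1 cells were grouped by their labels. The deposited values are raw counts per gene symbol. The authors trimmed reads with AdapterRemoval and sorted alignments with SAMtools, and the submitters' processing notes name FastQC 0.11.9, STAR 2.7.9a, HTSeq 0.13.5 and hg38. The annotation, strand setting and treatment of multi-mapping reads are not given in the sources used here.

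Tests used edgeR 4.0.16 under R 4.3.3 (TMM, filterByExpr, quasi-likelihood, 1 fit of 3 groups with 3 residual degrees of freedom), and p-values were adjusted over 16510 genes by the Benjamini-Hochberg method, with a threshold of 0.05. Each standard error is the size of the log2 change over the root of its F statistic. TMM assumes that most genes are unchanged. Intervals of log2 fold changes come from this fit and include the spread between libraries, while limits from a count of 0 cover counting error only. Replicates of a group differed beyond sampling noise, so none was counted as a duplicate.

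Gene positions and transcripts came from GENCODE 44, which held 32852 of the symbols by name and 237 by a RefSeq synonym. In a simulation, counts were drawn around the mean of all libraries, and 200 genes above a minimum count were changed in a knockdown. With these changes in ZM11-kd1 (16074 genes), the test recovered 98% of 2-fold changes (log2 of 1) with 3.88% of calls false. For ZM11-kd2 (16078 genes) these were 95% and 7.58%. In the data most genes were called, so these rates do not show how the test fares there. They do not cover genes of low counts either.

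The members and the lists were chosen with earlier results of these data known. All members were named, and of each other list up to 4 genes called in a knockdown with the largest mean change, plus the 5 genes most like the member with the largest mean change. Some genes that this rule selects are not reported here. UGDH, UGP2, SLC35D1, the marker genes and the untested genes were named after their values were seen. Alternatives were DESeq2 1.42.0 size factors and its Wald test, library totals, a replicate block, no filter, a minimum of 10 counts per library, fits of the compared groups alone, a minimum fold change of 1.5, a lowess correction (span 0.3) for GC content and length, sums of paralogs, and each library left out. The same correction with the length of 1 transcript was chosen after seeing the data.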

Additional observations from a re-analysis of the deposited data

Results flagged for a closer look

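For 8 of the 9 tested members the effects of the knockdowns differed from each other, by the test of ZM11-kd2 against ZM11-kd1 in the same fit, beside 68.8% of all genes tested. The effects went in opposite directions for AKR1C3 (log2 difference -2.31) and HSD17B11 (-0.82). They did so as well for UGT2B17 (1.67), whose fall in ZM11-kd1 lost its call in 9 of 15 alternatives, and for HSD17B4 (-0.47), whose effects had the same sign with library totals (-0.098 and -0.38) and with the correction for GC content and length (0.99 and 0.17). UGT2B11 differed by 2.58, with a fall in ZM11-kd1 and no call in ZM11-kd2. SRD5A3 (-0.88, adjusted p = 0.000117, edgeR), UGT2B15 (0.35, adjusted p = 0.00243, edgeR) and SRD5A1 (-0.30) moved the same way in both knockdowns and by different amounts. The UGT2B15 difference lost its call with the correction for GC content and length of 1 transcript (0.20, adjusted p = 0.0557, edgeR). That of SRD5A1 lost it with library totals (-0.11, adjusted p = 0.171, edgeR).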

How the results depend on the processing

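Counts of called members, other enzymes and all genes stayed within 1.5 times of the reported counts under the other alternatives. The exception was a fold change of at least 1.5, which left 5 members in ZM11-kd2, 5 members between the knockdowns and 7389 genes between the knockdowns. Of the values of single members, 401 kept direction and side of the threshold, 15 lost the call and 7 reversed. Library totals turned HSD17B4 in ZM11-kd1 to -0.098. The correction for GC content and length turned UGT2B11 to -0.062 and HSD17B4 to 0.17 (adjusted p = 0.00367, edgeR) in ZM11-kd2. For HSD17B4 the summed exon length is far above that of its transcript, and with the length of 1 transcript the value was -0.35. UGT2B15 between the knockdowns lost its call with that length (0.20, adjusted p = 0.0557, edgeR). Summed with UGT2B15, UGT2B17 in ZM11-kd2 gave -1.09, and summed over all UGT2B genes UGT2B17 and UGT2B11 gave -1.23, by construction the value of the more abundant genes. With single libraries left out, HSD17B6 between the knockdowns ranged from -0.097 to 0.65 and UGT2B17 in ZM11-kd1 from -0.89 to -0.59. UGT2B11 was not tested with at least 10 counts in every library. Replicate numbers did not pair the samples (correlations of deviations 0.0062, -0.026 and -0.044). With a replicate block 12545, 11688 and 10978 genes were called in ZM11-kd1, in ZM11-kd2 and between the knockdowns, and UGT2B17 in ZM11-kd1 (-0.74) lost its call. Except where stated, the cause was not tested. Depth limits UGT2B11, UGT2B17 and UGT2B28, which had at most 91 counts in any library.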

Other observations

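Ratios of counts within a library, which no scaling changes, were computed for 4 pairs of members. The ratios restate the changes of these members and are no separate evidence. SRD5A1 had 2.81 and 2.52 times the counts of SRD5A3 in control cells, 7.35 and 5.38 times in ZM11-kd1, and 8.87 and 9.91 times in ZM11-kd2. AKR1C3 had 1.24 and 1.31 times the counts of UGT2B15 in control cells, 9.50 and 9.99 times in ZM11-kd1, and 1.62 and 1.47 times in ZM11-kd2. HSD17B11 had 15.5 and 17.6 times the counts of HSD17B6 in control cells, 102.1 and 139.4 times in ZM11-kd1, and 73.3 and 40.7 times in ZM11-kd2. In these 3 pairs every knockdown library lay above both controls. In ZM11-kd2, however, AKR1C3 and HSD17B11 themselves fell (log2 fold changes -0.96 and -0.24), by less than UGT2B15 and HSD17B6 (-1.23 and -1.92). The ratio of UGT2B15 to UGT2B17 was instead lower in every knockdown library, with 35.9 and 28.4 in control cells, 17.2 and 18.5 in ZM11-kd1, and 7.37 and 6.86 in ZM11-kd2. The ratios are of counts and not of molecules, since transcript lengths differ.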
